A study of Homo sapiens with 18 samples.

Results

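A pair of control ribosome footprint sets from NCI-H1975, an established human lung adenocarcinoma cell line, was compared. The 3 libraries of the first set carry the treatment label Scramble and the 3 of the second the label sgControl, which the labels describe as a CRISPR control. No group of this comparison carries a knockout, and no guide, vector or clone is named in the labels used here. Per the labels, both sets came from cells harvested in 100 micrograms per ml cycloheximide, a drug that stops ribosomes on mRNA, and both went through nuclease digestion and depletion of ribosomal RNA. According to the series' design text, the Scramble libraries served the search for lncRNAs with coding potential and the sgControl libraries are the reference for a knockout of the peptide DAMP. Beyond these 6 footprint libraries, poly(A) mRNA libraries of the same conditions, 3 each, gave a second readout, and the 3 sgDAMP footprint libraries (the knockout) are given for orientation. The members described here are the protein-coding genes with 10 or more counts in every one of the 6 control footprint libraries. They number 1605 of the 19331 protein-coding genes and of the 61487 gene IDs counted.

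In ribosome profiling, RNA that is not covered by a ribosome is digested and the protected pieces are sequenced, so that the reads of a gene reflect how many ribosomes sat on its mRNA. Fragments of ribosomal RNA and of other structured or protein-bound small RNAs come through the same digestion and share the library with the mRNA footprints. Mitochondria have ribosomes and ribosomal RNAs of their own, encoded in the mitochondrial genome. The mRNAs of highly expressed genes often have processed pseudogenes, near copies of the spliced mRNA elsewhere in the genome, which short reads cannot always tell from the gene.

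The 2 sets differed in depth on mRNA and in how far their libraries differed among themselves. Gene counts ran from 1035159 to 1302852 per Scramble library and from 6845899 to 7840852 per sgControl library, of which protein-coding genes held 87269 to 242907 and 5467084 to 6241584. The 3 sgControl libraries agreed within sampling noise for nearly all genes, with 57 of 12195 genes beyond it. Chi-square over its degrees of freedom averaged 0.909 there. In the Scramble libraries, which did not agree, it averaged 16.5 over 3292 genes and 2.77 over 2993 protein-coding genes. Each average, also that for mRNA below, covers the 99% of genes with the lowest chi-square. Some genes named below departed from the agreement. ENO1, NONO, PARK7, IGF1R and CDK4 had fewer counts in the third sgControl library than in the first, although the third was deeper. Since nearly all genes agreed, the sgControl libraries were summed and counted as 1 sample in every footprint test. These tests thus rest on the spread among the 3 Scramble libraries, and sgControl is assumed to vary like them. The sgControl mRNA libraries differed beyond sampling noise (38.3) and entered the mRNA and interaction tests as 3 samples. The labels do not say that replicates are separate cultures, so p-values measure the spread between these samples, which may be technical. The condition and everything else that was done separately for the 2 sets cannot be told apart.

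Protein-coding genes held a minority of the gene counts in Scramble and a large majority in sgControl. Their share was 20.5%, 19.9% and 6.70% in the 3 Scramble libraries and 79.9%, 79.6% and 79.5% in those of sgControl, with no overlap. The sgDAMP footprints, at 77.0% to 77.3%, lay near sgControl. Within Scramble, the third library had a coding share well below the others. Exact 95% Clopper-Pearson intervals of these class shares were at most 0.200 percentage points wide and cover counting error only. An exact two-sided permutation test of 3 libraries against 3 cannot go below p = 0.10, nor one of 3 against 1 below p = 0.25, so the shares are given as values per library. The contrast rests in large part on a few genes: the log2 ratio of the coding share, Scramble to sgControl, was -2.34, and -0.45 when the 10 genes with the most counts were left out of all libraries. With all counted reads as the denominator it was -5.32.

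Mitochondrial ribosomal RNA was the largest class in Scramble. It made up 58.3%, 52.4% and 71.7% of Scramble gene counts against 2.24%, 2.35% and 2.34% of sgControl gene counts, a 26.3-fold ratio of the Scramble mean to the summed sgControl libraries. MT-RNR1, the RNA of the small mitochondrial ribosomal subunit, was counted 375224, 334214 and 462899 times in Scramble and 8375, 9920 and 10015 times in sgControl. MT-RNR2, the RNA of the large subunit, had 315334, 208606 and 471109 counts in Scramble and 145140, 174150 and 172501 in sgControl. The small-subunit RNA thus held 54.1% of the class in Scramble and 5.44% in sgControl, where 94.6% fell on MT-RNR2.

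Small nucleolar RNAs, which guide modification of ribosomal RNA, and scaRNAs, which do so for spliceosomal RNAs, also had higher shares in each Scramble library than in any sgControl library. The snoRNA share ran from 0.409% to 0.558% in Scramble and from 0.0267% to 0.0276% in sgControl, a 17.3-fold ratio. For scaRNAs the ranges were 0.0246% to 0.0485% and 0.00273% to 0.00306%, and SCARNA8 alone held 84.1% of the class in Scramble. SNORD104 was the most counted snoRNA of Scramble, with 519, 465 and 745 counts against 66, 77 and 89. The opposite held for spliceosomal snRNAs, which took 0.333% to 0.428% of Scramble and 1.91% to 1.98% of sgControl gene counts. RNU5B-1, a U5 snRNA of the spliceosome, had 54623, 63006 and 63244 counts in sgControl and 61, 115 and 450 in Scramble, whereas the U5 copy RNU5A-1 had 2612, 1577 and 2018 counts in Scramble beside 47404, 56344 and 56645.

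Among lncRNAs, the most counted genes in Scramble were hosts of snoRNAs, but not all such hosts were higher there. The class took 0.724% to 1.11% of Scramble and 0.274% to 0.288% of sgControl gene counts. GAS5, a snoRNA host gene, had 4554, 7459 and 4387 counts in Scramble and 47, 50 and 50 in sgControl, although its mRNA libraries held 7380 to 9575 and 2578 to 6521 counts. SNHG5, another snoRNA host, had 1697, 1528 and 2768 counts in Scramble and at most 7 in an sgControl library. In sgControl the nuclear lncRNA MALAT1 led instead, with 2710, 2795 and 2859 counts beside 218, 162 and 186 in Scramble. The snoRNA host SNHG29 came next in sgControl, with 1778, 1967 and 2102 counts beside 18, 12 and 15 in Scramble. Since reads of a snoRNA and of the intron that holds it can be given to either gene, depending on the annotation, these host counts are uncertain to that extent.

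Genes of microRNAs made up 0.0272% to 0.0421% of Scramble and 0.00523% to 0.00552% of sgControl gene counts, and which hairpins were counted differed between the sets. The mature sequences of 3 of the 5 most counted miRNA genes are shown because 2 of them were seen in only 1 of the sets. Sequences are from RefSeq (GRCh38.p14), 5′ to 3′, with the seed (bases 2 to 8) in capitals.
hsa-miR-221-3p: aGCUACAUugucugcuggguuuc
hsa-miR-138-5p: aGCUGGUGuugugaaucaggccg
hsa-miR-138-1-3p: gCUACUUCacaacaccagggcc
hsa-miR-27b-5p: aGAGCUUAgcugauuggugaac
hsa-miR-27b-3p: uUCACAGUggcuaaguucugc
No seed is shared among them. MIR221 (mature arm at chrX:45746180-45746202, minus strand) had 21, 26 and 27 counts in Scramble and 0 in each sgControl library, which allows up to 4.38e-05% of gene counts in the shallowest of them. MIR138-1 (5p arm at chr3:44114234-44114256, plus strand) had 0 counts in each Scramble library, which allows up to 0.000290%, and 19, 31 and 26 in sgControl. MIR27B (3p arm at chr9:95085505-95085525, plus strand) was counted in both, with 10, 21 and 18 against 16, 25 and 23. MIR3609 led in both sets and MIR30D had 39, 23 and 51 counts in Scramble and 0 in sgControl. Counts are per hairpin gene and do not say which arm was read.

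Pseudogenes divided by kind. Pseudogenes of small and ribosomal RNAs took 8.25%, 17.6% and 7.86% of Scramble gene counts and 6.52% to 6.63% of those of sgControl, but through different loci. RNA5SP202 (6, 4427963 to 4428081), a 5S ribosomal RNA pseudogene, held 82239, 167724 and 85296 counts in Scramble and 27, 23 and 23 in sgControl. RNU1-67P (X, 119423742 to 119423905), a U1 snRNA pseudogene, held 203, 294 and 128 in Scramble and 381905, 435349 and 437266 in sgControl, 5.58% of all gene counts of that set. All other pseudogenes, took 0.126% to 0.375% in Scramble and 5.99% to 6.10% in sgControl, a 21.1-fold ratio of sgControl to the Scramble mean. Gene IDs without a class also differed: ENSG00000256045 had 90676, 63388 and 51501 counts in Scramble and 8, 15 and 17 in sgControl, and ENSG00000286171 had 326, 234 and 298 against 111889, 130870 and 131112.

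The closing rows of the count files, which tally reads given to no gene, differed between the sets as well. Only 4.35%, 4.32% and 4.18% of all counted reads were assigned to a gene in Scramble, against 33.6%, 34.2% and 34.1% in sgControl. Reads with more than 1 position made up 45.2% to 48.2% in Scramble and 23.6% to 23.7% in sgControl. Reads that were not aligned made up 42.7% to 44.8% and 36.5% to 36.7%, and reads in no annotated feature 3.54% to 4.88% and 2.50% to 2.72%. Ambiguous reads, which overlap more than 1 gene, went the other way, at 1.08% to 1.43% in Scramble and 3.18% in every sgControl library. No row overlapped between the sets, apart from the row for low alignment quality, which is at 0 in all 6 libraries. As mean shares of all reads rather than of gene counts, miRNA, lncRNA and small or ribosomal RNA pseudogene reads were lower in Scramble than in sgControl (log2 ratios -0.31, -1.35 and -2.21).

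**Figure D1:**
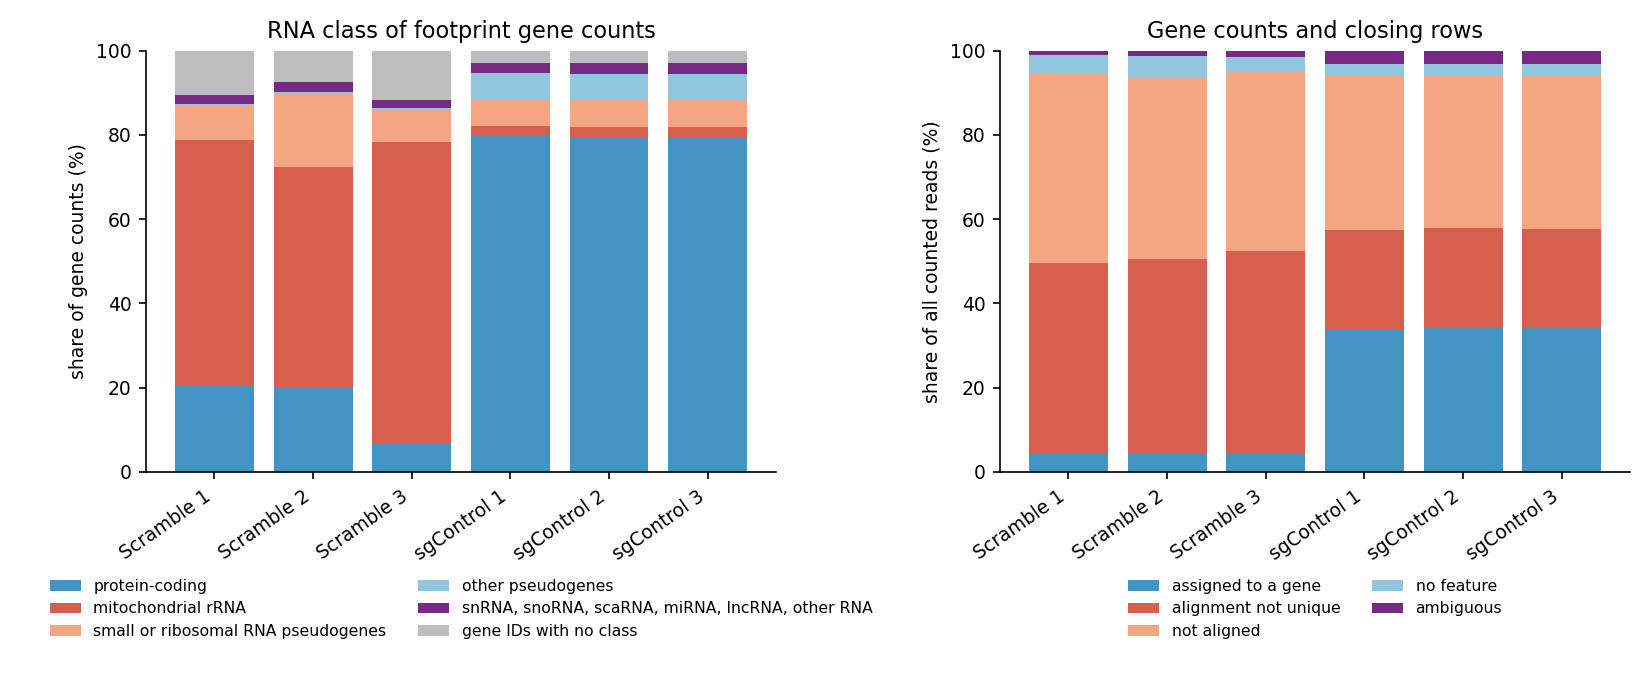
Left, the share of footprint gene counts by RNA class; right, the share of all counted reads assigned to a gene or to a closing row, in percent for each of the 6 libraries. Mitochondrial rRNA fills 52.4% to 71.7% of each Scramble bar at left, and the gene-assigned segment at right is 4.18% to 4.35% in Scramble and 33.6% to 34.2% in sgControl.

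The members carried most of the coding signal in both sets: 72.1% to 72.7% of protein-coding counts in Scramble and 53.9% to 54.6% in sgControl. Their number was set by Scramble, where the lowest of the 6 counts lay for 1563 members (97.4%). The same minimum in the 3 Scramble libraries alone kept 1636 genes, and in the 3 sgControl libraries alone 9302. At the edge of the rule, 142 members had a lowest count of 10, and 183 protein-coding genes had a lowest count of 9. LDB1, with 18, 11 and 10 counts in Scramble and 11, 12 and 20 in sgControl, was just inside, as were CEBPD and UROS. PPIA, the gene of cyclophilin A, with 20, 26 and 9 counts in Scramble and 5265, 6009 and 6136 in sgControl, was just outside, as were COX7C and CBX3. Genes that are low in Scramble and high in sgControl are therefore missing from the members more often than the reverse.

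Footprints of most members differed between the 2 control sets, in both directions and by large factors. At an adjusted p under 0.05 (edgeR quasi-likelihood test, Benjamini-Hochberg over all genes fitted), 539 of 1605 members were higher in Scramble (33.6%) and 593 lower (36.9%). In either direction that is 70.5% of members. The background over all 10679 genes fitted was 11% higher and 55.8% lower (66.8% in all), over the 8823 protein-coding ones 9.99% and 52.8%, and over the 7218 of those outside the members 4.74% and 56.3%. With the sgControl libraries taken as 3 replicates, 729 members were higher and 717 lower, beside 82.7% of all genes fitted in either direction. All log2 differences are Scramble minus sgControl on a scale set by the members (TMM, trimmed mean of M values), so that their median was 0.06. The middle 50% of members spanned -2.12 to 1.79, the extremes were -8.28 and 7.46, and 48.5% of members differed by at least 4-fold. All called members were separated, with no overlap of scaled CPM (counts relative to the scaled library size) between the sets. No overlap was seen for 726 members higher and 713 lower, 45.2% and 44.4% of members, against 17.8% and 65.9% of all genes fitted.

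The split into higher and lower depends on the scaling. Higher members made up 47.6% of the called ones on the main scale, 47.9% with DESeq2 size factors, 70.9% with TMM over all genes fitted, 73.4% with the upper quartile, 81.2% with protein-coding totals and 8.59% with all gene counts. These scales moved the median member by 0, 1.33, 1.49, 1.98 and -0.42 from the main scale. Every difference below is relative to the typical member. In simulated data of 10679 genes, 98.5% of genes given a log2 difference of 4 were called, 40.9% of those given 2 and 4.41% of those given 1. There 10479 genes were left unchanged, whereas 66.8% of all genes fitted were called in the data. The simulated rates are therefore not detection rates for the data.

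Levels of members were only loosely related between the control sets. Across the 1605 members, Pearson's r of log2 CPM was 0.33 (Spearman 0.30) between Scramble and sgControl footprints and 0.98 between sgControl and sgDAMP footprints. Between the mRNA libraries of Scramble and sgControl r was 0.75. Footprints and mRNA of the same condition gave 0.33 in Scramble and 0.32 in sgControl. These are descriptions across genes, which share libraries, and members near the minimum of 10 narrow the range in Scramble.

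The 10 members with the largest positive differences included secreted, lysosomal and membrane proteins and histones. C3 (chromosome 19, 6677704 to 6720650), the central complement component, had 517, 464 and 149 counts in Scramble and 12, 23 and 17 in sgControl. Scaled, that is 1520, 1650 and 1170 CPM against 6.15, 10.3 and 7.70 CPM, a log2 difference of 7.46 (SE 0.80, adjusted p = 2.05e-19). C3 mRNA did not pass the test (-0.48, adjusted p = 0.128). AGR2, an endoplasmic reticulum protein of secretory epithelia, had 1319, 688 and 396 counts against 126, 124 and 150, a difference of 5.65 (SE 0.76, adjusted p = 8.18e-13), with 0.85 in mRNA (adjusted p = 0.0212). CTSC, the lysosomal protease cathepsin C, had 518, 464 and 142 counts against 76, 104 and 90, a difference of 5.08. CEACAM6, an adhesion protein of the cell surface, stood at 75, 92 and 36 counts against 16, 19 and 11 (5.25). Each of these genes had raw counts in Scramble above those of the far deeper sgControl libraries.

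The others of these 10 were the histone genes H2AC17 (6.18) and H4C12 (5.40), the amino acid transporter subunit SLC7A7 (5.20), the transporter of the monocarboxylate family SLC16A4 (5.01), the paraoxonase PON3 (4.87) and the esterase SIAE (4.84). SLC16A4 and SIAE were also higher in Scramble mRNA, by 2.66 (adjusted p = 7.12e-06) and 2.24 (adjusted p = 3.32e-06), and SLC7A7 was lower there (-1.08, adjusted p = 0.000719). H2AC17 and H4C12 belong to families of near-identical copies, and their counts are uncertain between copies.

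The 10 members with the largest negative differences include genes of signalling, adhesion and protein handling. NONO (chromosome X, 71283635 to 71301168), a nuclear RNA-binding protein, had 23, 23 and 19 counts in Scramble and 63264, 66927 and 59600 in sgControl. Its log2 difference was -8.28 (SE 0.61, adjusted p = 5.25e-40), with -0.71 in mRNA (adjusted p = 0.00208). CTNNB1, which encodes beta-catenin of adherens junctions and Wnt signalling, had 54, 66 and 28 counts against 79067, 83877 and 80839, a difference of -7.55 (SE 0.60, adjusted p = 2.13e-34). Its mRNA was higher in Scramble, by 1.25 (adjusted p = 0.000244). IGF1R, the receptor of insulin-like growth factor, had 26, 21 and 15 counts against 30308, 32674 and 29059, a difference of -7.37. Groups were far apart for all of these, as the plot of the levels by library shows.

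Also among these 10 were PARK7 (-7.18), which encodes the redox-sensitive protein DJ-1, the integrin subunit ITGA6 (-6.99), the scaffold SDCBP (-6.62), the nuclear import receptor KPNA2 (-6.23), the chaperone HSP90AB1 (-5.66) and the cell cycle kinase CDK4 (-5.50). ITGA6 and SDCBP mRNA were higher in Scramble, by 2.98 (adjusted p = 4.97e-06) and 1.95 (adjusted p = 1.62e-05). PARK7 mRNA did not pass the test (-0.23).

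**Figure D2:**
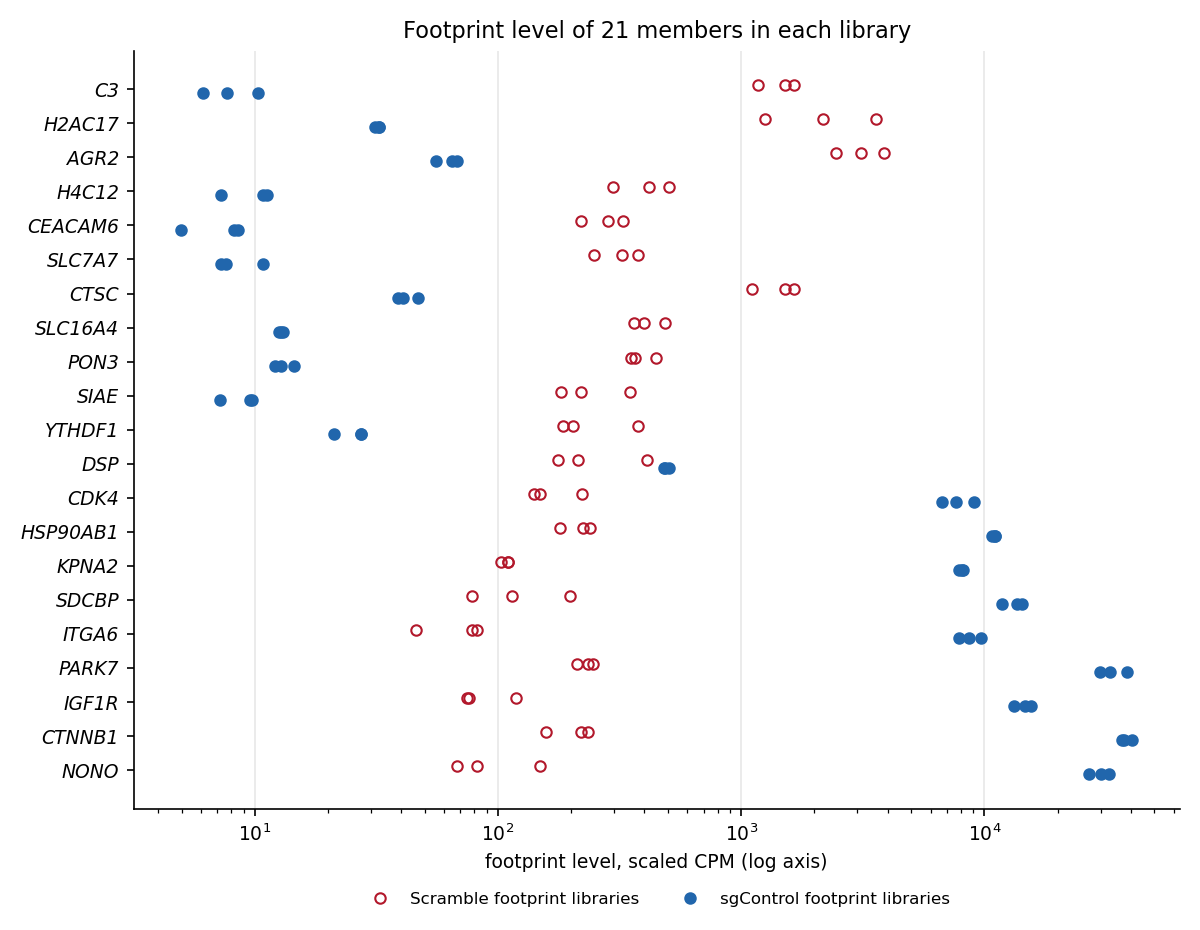
Footprint level in scaled CPM (log axis) of the 10 highest and 9 of the 10 lowest members with YTHDF1 and DSP, a point for each of the 3 Scramble (open) and 3 sgControl (filled) libraries. For C3 the Scramble points lie at 1170 to 1650 and the sgControl points at 6.15 to 10.3, and for NONO the order is reversed, at 67.5 to 149 and 27000 to 32400.

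Of the study's genes, YTHDF1 and DSP-AS1 were alike on the main scale, with positive footprint differences and mRNA differences that did not pass the test. DSP was unlike them, with a negative footprint difference and higher mRNA in Scramble (1.15). YTHDF1, a reader of the RNA mark m6A that promotes translation, had 63, 57 and 48 counts in Scramble and 53, 47 and 60 in sgControl. Relative to the other members it was higher in Scramble (3.30, SE 0.62, adjusted p = 4.90e-07), while its mRNA did not pass the test (0.08, adjusted p = 0.634). With all gene counts as the scale the footprint value was 2.76 (adjusted p = 0.116). DSP, which encodes the desmosomal protein desmoplakin, had 60, 60 and 52 counts in Scramble and 953, 1125 and 1058 in sgControl, and did not pass (-0.93, SE 0.47, adjusted p = 0.068). DSP was called lower without the third Scramble library (-1.33, adjusted p = 0.00194) and with sgControl as 3 replicates (-1.04, adjusted p = 0.000236), and with protein-coding totals as the scale its sign turned (1.06, adjusted p = 0.0617). DSP-AS1, the lncRNA that per the series title encodes the micropeptide under study, is no member because it is annotated as noncoding. It had 335, 291 and 226 counts in Scramble and 175, 176 and 216 in sgControl, a difference of 3.82 (SE 0.64, adjusted p = 1.25e-08), with 0.16 in mRNA (adjusted p = 0.449). Alternatives were run for members only, so the DSP-AS1 footprint difference was not checked on other scales. Whether counting used strand is not given in the sources used here, so reads of DSP and DSP-AS1 where they overlap cannot be told apart.

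Of the mRNAs of the translation machinery, more were called lower than higher in Scramble, at shares near those of all genes fitted. Of the 60 cytosolic ribosomal proteins among the members, 37 were lower in Scramble and 6 higher, with a median of -2.49 beside 0.06 for all members and -2.46 for all genes fitted. Of the 76 fitted, which include those under the minimum of 10 counts, 48 were lower and 6 higher (median -2.55). RPL13A had 51, 53 and 17 counts against 9059, 10218 and 10366 (-4.87, adjusted p = 2.45e-22), and RPS24 and RPL10A differed by -4.92 and -4.36. The exceptions were FAU (1.24), RPS29 (1.39), RPL37 (1.53), RPS14 (1.60), RPL39 (2.07) and RPS23 (2.43), all called higher. Of the counts of RPS23 and its named pseudogenes, 91.3% lay on the pseudogenes in sgControl and 0.174% in Scramble. For RPL37 these shares were 73.7% and 1.35%. The part of read placement in these values was not tested. In mRNA 43 of the 60 were lower in Scramble and 4 higher, with a median of -0.92. RPS23 mRNA was higher, by 4.18. Initiation factors, which bring ribosomes to mRNAs, gave 9 lower and 1 higher of 16 (median -2.74; 25 and 1 of the 40 fitted), among them EIF5 (-4.70), EIF3M (-4.58) and EIF4G1 (-4.26). The member called higher was EIF4E (2.38), which binds the mRNA cap.

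Among other mRNAs of the translation system, called members were more often lower than higher, though each list also held members that were not called. Of all members 33.6% were higher and 36.9% lower, and of all genes fitted 11% and 55.8%. Of 8 elongation factors and related mRNAs with a 5′ terminal oligopyrimidine tract, NPM1 (-5.30) and VIM (-5.05) were lower and none was higher. EEF1A1 (-0.29), EEF2 (-0.47) and PABPC1 (0.36) did not pass. With pseudogenes summed, the difference of this list's median from the members' median was -1.61. Of 9 aminoacyl-tRNA synthetases, which charge tRNAs, RARS1 (-4.68), GARS1 (-3.93) and MARS1 (-3.57) were lower, QARS1 (1.78) was higher, and the median was 0.08. Over the 20 synthetases fitted the median was -0.07. In mRNA, RARS1 and GARS1 went the other way, by 2.27 and 2.23. Of 8 genes of the integrated stress response, 5 were lower, among them PSAT1 (-4.14), CEBPB (-3.15) and SLC3A2 (-3.02), and SLC38A2 (2.23) was higher; of the 27 fitted 20 were lower and 1 higher. SLC3A2 was no longer called with protein-coding totals (-1.04, adjusted p = 0.071).

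Among genes of protein folding and degradation, called members were more often lower than higher in Scramble footprints, as were all genes fitted (55.8% lower, 11% higher). Cytosolic heat shock proteins and the chaperonin subunits gave 11 lower and 0 higher of 16 (median -2.21), and 16 and 0 of the 22 fitted. CCT2 had 40, 27 and 20 counts against 10059, 11441 and 11639 (-5.42, adjusted p = 4.54e-26), and HSPA4 differed by -4.89 while its mRNA was higher by 2.44. In mRNA 10 of these 16 were higher in Scramble and 5 lower, with a median of 0.96. Proteasome subunits gave 12 lower and 3 higher of 19 (median -2.78; 20 and 3 of the 29 fitted), from PSMB6 (-4.31), PSMD2 (-4.23) and PSMA4 (-4.19) to PSMB2 (1.46). For the endoplasmic reticulum the list was divided, with 9 lower and 7 higher of 20, and 15 and 7 of the 27 fitted. PDIA3 (-3.26) and SEC61B (-3.14), a subunit of the translocation channel, were lower, whereas XBP1 (3.61), the transcription factor of the unfolded protein response, and the translocon-associated SSR2 (3.41) and SSR1 (3.21) were higher.

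Most glycolysis members were lower in Scramble in footprints, and all were in mRNA. For comparison, 36.9% of all members and 55.8% of all genes fitted were lower in footprints. Of the 10 members 7 were lower in footprints (12 of the 17 fitted) and SLC2A1, the glucose transporter (1.51), was higher, with a median of -3.43. ENO1, which encodes enolase, had 962, 751 and 245 counts against 147546, 163938 and 135970 (-4.82, adjusted p = 1.71e-15). PFKP (-4.30), PGK1 (-4.04) and GAPDH (-4.0) followed. PKM, which encodes pyruvate kinase, had 1421, 1387 and 379 counts against 4311, 4807 and 4841 and did not pass (0.88, adjusted p = 0.164). PKM was called higher without the third Scramble library (1.06, adjusted p = 0.00661), with sgControl as 3 replicates (0.90, adjusted p = 0.000477) and on the scales that raise the median, such as TMM over all genes fitted (2.22, adjusted p = 0.00401). In mRNA all 10 were lower, with a median of -1.81. Lipid synthesis genes gave 6 lower of 16, a share like that of all members (36.9%), among them SQLE (-3.55) and FADS2 (-3.21), and 3 higher.

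Cell division genes among the members were few, and their calls stand beside 36.9% lower of all members and 55.8% lower of all genes fitted. Of 7 mitotic genes 6 were lower in Scramble, among them CCNB1 (-4.89), which encodes cyclin B1, CENPF (-4.21) and BUB3 (-3.88). Of the 38 fitted 27 were lower and 0 higher. Only 5 of 42 DNA replication genes fitted reached the minimum of 10 counts, which Scramble set. None of these 5 was called, with values from -0.57 for MCM7 to 1.08 for RPA3, whereas over the 42 fitted 23 were lower and 1 higher, with a median of -3.74. Histone mRNAs, which lack a poly(A) tail, were divided, with 17 of 38 lower and 6 higher (32 and 7 of the 57 fitted). H3C3 had 32, 32 and 14 counts against 8826, 10565 and 10547 (-5.47), while H2AC17, above, lay at the other end. Near-identical copies make single histone genes uncertain. Among p53 targets BAX was lower (-1.89) and TNFRSF10B higher (1.74) of 6, and over the 18 fitted 10 were lower and 1 higher. BAX lay at 0.08 with protein-coding totals and was not called with TMM over all genes fitted (-0.55, adjusted p = 0.311), and TNFRSF10B was not called with all gene counts as the scale (adjusted p = 0.433).

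Mitochondrial gene products included called members in both directions on the scale set by the members, as did all members (33.6% higher, 36.9% lower). Of 12 mRNAs encoded in the mitochondrial genome, MT-ND1 (1.96), MT-ND6 (1.95) and MT-ND4L (1.35) were higher, MT-ND3 (-2.25) and MT-CYB (-1.27) lower. MT-ND1 had 1110, 1250 and 3940 scaled CPM in Scramble and 528, 561 and 524 in sgControl, so that the third Scramble library, which also had the largest share of mitochondrial ribosomal RNA, was the highest. With all gene counts as the scale neither MT-ND1 (adjusted p = 0.487) nor MT-ND6 (adjusted p = 0.451) was called. MT-ND3 was not called with TMM over all genes fitted (-0.95, adjusted p = 0.0799), the upper quartile (adjusted p = 0.166), protein-coding totals (-0.25, adjusted p = 0.659) or DESeq2 (adjusted p = 0.0625). The median of the 12 ran from -0.25 to 2.50 over the scales tried. MT-ND3 had 123, 74.7 and 479 scaled CPM against 981, 998 and 1020. The part of that ribosomal RNA in these values was not tested. Of 50 respiratory chain subunits encoded in the nucleus 19 were higher and 19 lower, with a median of 0.67, but over the 73 fitted 21 were higher and 37 lower, with a median of -1.19. Members ran from COX7B (-3.63) and ATP5PB (-3.57) to NDUFA2 (2.88). In mRNA 36 of the 50 were lower in Scramble and 5 higher.

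Most members among inflammatory and interferon genes were higher in Scramble footprints, though of the 14 inflammatory genes fitted, 7 were higher and 6 lower. The share called higher was 33.6% over all members and 11% over all genes fitted. Of 6 NF-kB and inflammatory genes 4 were higher and TNFAIP2 (-2.92) lower, with a median of 2.82. TNFAIP2 was not called with protein-coding totals (adjusted p = 0.0692). CXCL1, a chemokine, had 724, 475 and 212 counts against 147, 175 and 174 (4.56, adjusted p = 2.05e-10), and CXCL8 differed by 3.61 (adjusted p = 1.36e-08). CXCL8 mRNA did not pass (-0.84, adjusted p = 0.162). Of 10 interferon and antigen presentation genes 6 were higher and PSME1 (-2.35) lower, with a median of 2.04, and of the 22 fitted 12 were higher and 3 lower. ISG15, a ubiquitin-like protein induced by interferon, had 224, 242 and 74 counts against 42, 68 and 63 (4.69, adjusted p = 9.02e-12), with -0.86 in mRNA (adjusted p = 0.000433). HLA-C (3.89) and IFIT2 (3.68) were higher as well. With all gene counts as the scale CXCL8 (adjusted p = 0.078), HLA-C (adjusted p = 0.0504) and IFIT2 (adjusted p = 0.0655) were not called.

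Among calcium-binding S100 proteins and annexins, which bind membranes, the members called higher in Scramble were S100 genes and those called lower were annexins. Of 13 members of both families 6 were higher and ANXA1 (-4.30) and ANXA3 (-3.55) lower, while S100A11 (0.54) did not pass. Over all members 33.6% were higher and 36.9% lower. S100A6, the most counted member in Scramble, had 4564, 3927 and 1510 counts against 1493, 1632 and 1606 (4.14, adjusted p = 3.55e-07), and its mRNA went the other way (-2.27, adjusted p = 1.04e-06). S100A13 differed by 4.68 in footprints and by -2.81 in mRNA. ANXA2 did not pass (0.67, adjusted p = 0.275).

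Close relatives in other lists also took opposite directions. Of 22 genes of the NRF2 response, glutathione metabolism and aldo-keto reductases, 9 were lower and 3 higher, beside 36.9% and 33.6% of all members. AKR1C1 had 118, 101 and 39 counts against 28273, 31738 and 32089 (-5.41, adjusted p = 6.97e-24), while its neighbour on chromosome 10, AKR1C2, had 1639, 1496 and 667 against 1066, 1283 and 1316 (3.16, adjusted p = 8.83e-06). With all gene counts as the scale AKR1C2 was not called (2.77, adjusted p = 0.0927). These genes are close in sequence, so that reads may be split between them. FTH1, the ferritin heavy chain, was higher (4.35) and FTL, the light chain, lower (-1.37). Among keratins, KRT7 (-4.96) and KRT18 (-2.34) were lower and KRT8 (1.96) higher, although all 3 mRNAs were lower in Scramble. KRT18 was not called with TMM over all genes fitted (-1.01, adjusted p = 0.0847), nor KRT8 with all gene counts as the scale (1.66, adjusted p = 0.323).

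Adhesion and cytoskeletal members were divided, as were all members (36.9% lower and 33.6% higher). Over all genes fitted 55.8% were lower and 11% higher. With genes under the minimum of 10 counts included, the median was -1.85 for TGF-beta and matrix genes and -1.20 for the actin cytoskeleton. That of all genes fitted was -2.46. Of 16 TGF-beta and matrix genes 8 were lower and 5 higher, with the laminin subunit LAMB3 at 4.72 and FN1, fibronectin, at 2.90 beside ITGA6 at the low end. Of 23 actin cytoskeleton genes 10 were lower, among them TPM1 (-4.89), ACTN4 (-4.64) and VCL (-4.55), and 5 higher, with TAGLN2 at 1.93. ACTB (-0.61) and ACTG1 (-0.20) did not pass. With pseudogenes summed, the difference of the actin list median from the members' median was -1.47. Among 4 ERBB pathway members EREG, a ligand, was lower (-2.61, not called with protein-coding totals at -0.64, adjusted p = 0.256), and HRAS (2.94) and MAP2K2 (2.01) were higher. MAP2K2 was not called without the second Scramble library (1.69, adjusted p = 0.0987), nor HRAS (adjusted p = 0.148) and MAP2K2 (adjusted p = 0.334) with all gene counts as the scale. The lists were chosen with earlier results of these data known, and their counts are descriptions.

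**Figure D3:**
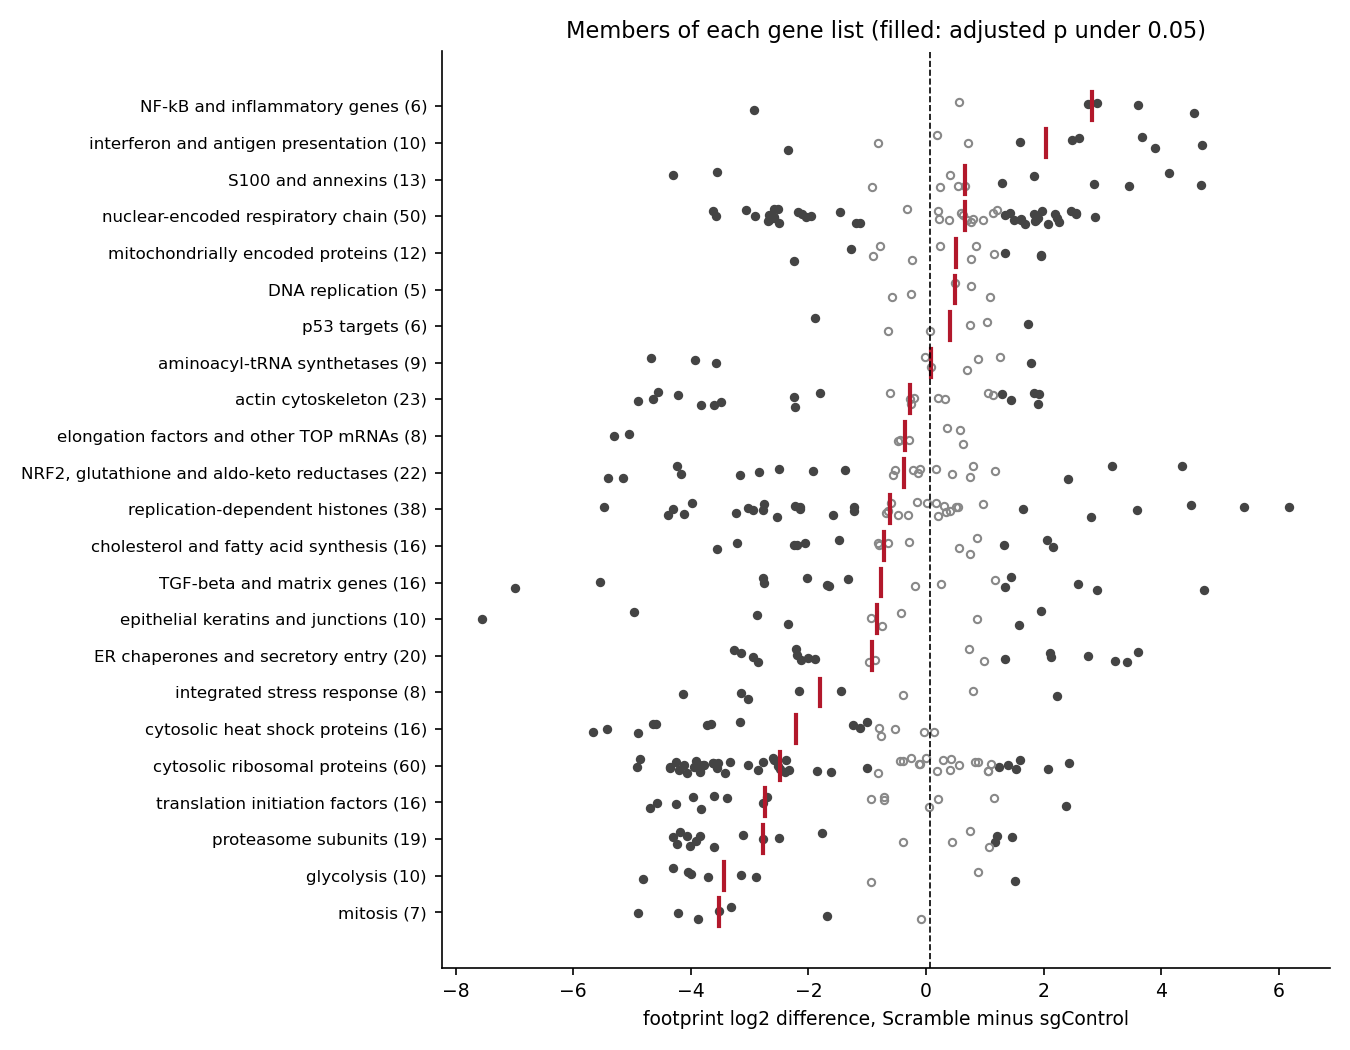
Footprint log2 difference, Scramble minus sgControl, of each member of the gene lists with at least 5 members (number in brackets); filled points passed the test, red bars are list medians, and the dashed line is the median of all members (0.06). List medians run from -3.52 for mitosis to 2.82 for NF-kB and inflammatory genes, and most lists hold called members on both sides.

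On the 6 scales tried, the medians over members of ribosomal proteins (-2.82 to -0.52), initiation factors (-3.21 to -0.76), proteasome subunits (-3.03 to -0.81), heat shock proteins (-2.53 to -0.23), glycolysis (-3.75 to -1.46) and mitosis (-3.93 to -1.54) stayed negative. Those of NF-kB genes (2.36 to 4.80), interferon genes (1.75 to 4.01), S100 and annexins (0.31 to 2.64), the nuclear-encoded respiratory chain (0.30 to 2.64) and DNA replication (0.22 to 2.46) stayed positive. The medians of the other lists with at least 5 members changed sign on at least 1 scale. These medians leave out genes under the minimum of 10 counts, and over all genes fitted those of DNA replication (-3.74) and the respiratory chain (-1.19) were negative. With a minimum of 30 counts, the difference of the list median from the members' median was 0.45 for the proteasome and -0.99 for ribosomal proteins, and with pseudogenes summed it was -0.16 for the respiratory chain.

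The 2 control conditions also differed in mRNA. Of 1583 members tested, 647 were higher in Scramble mRNA (40.9%) and 632 lower (39.9%), 80.8% in all, beside 56% and 22.7% of all 16360 genes fitted (78.7% in all). Footprint and mRNA differences had no linear or rank relation across members, with Pearson's r of 0.00 and Spearman's rho of 0.01 over 1583 genes. Of the members higher in Scramble footprints, 231 were higher and 199 lower in mRNA. Of those lower in footprints, 251 were higher and 229 lower in mRNA. The mRNA libraries differed in the closing rows too: 42.5% to 43.2% of reads lay in no annotated feature in Scramble and 1.15% to 1.43% in sgControl, and ambiguous reads made up 3.13% to 3.21% and 13.7% to 14.3%. The part of this in the mRNA differences was not tested.

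The footprint difference itself differed from the mRNA difference for most members. In the test of the interaction of assay and condition, 558 of 1583 members had relatively more footprints in Scramble (35.2%) and 656 fewer (41.4%), beside 14.5% and 64% of all 9029 genes fitted (78.4% in all). ITGA6 had the largest shortfall, with -9.98 (adjusted p = 7.28e-11), followed by CTNNB1 with -8.81 (adjusted p = 7.28e-11) and IGF1R with -8.69 (adjusted p = 8.58e-11). On the other side, S100A4 had the largest value, 8.01, C3 lay at 7.95 (adjusted p = 1.07e-08), S100A13 at 7.5 (adjusted p = 4.21e-08) and S100A6 at 6.41 (adjusted p = 1.73e-09). ALDH1A1, an aldehyde dehydrogenase and among the most counted members of Scramble, did not pass in footprints (0.44, adjusted p = 0.509), mRNA (0.14, adjusted p = 0.421) and the interaction (0.30, adjusted p = 0.463). ALDH1A1 footprints were called higher with sgControl as 3 replicates (0.45, adjusted p = 0.0241), TMM over all genes fitted (1.78, adjusted p = 0.0216), the upper quartile (1.93, adjusted p = 0.00701) and protein-coding totals (2.42, adjusted p = 0.00134).

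**Figure D4:**
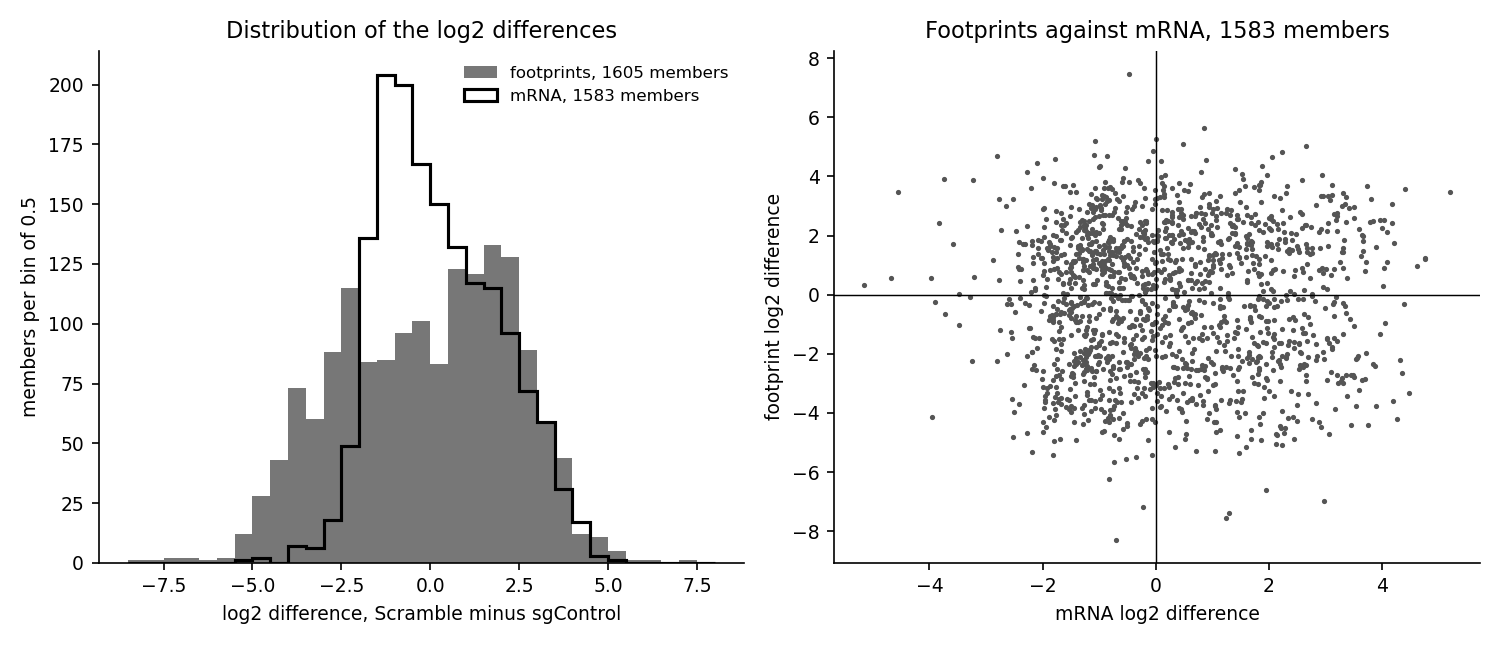
Left, the number of members per bin of the log2 difference, Scramble minus sgControl, in footprints (grey, 1605 members) and mRNA (line, 1583 members); right, footprint against mRNA difference, a point per member. Footprint differences spread more widely than mRNA differences, with 25% of members below -2.12 and 25% above 1.79, and the cloud at right has no slope (r = 0.00).

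Counts were divided differently between genes and their named pseudogenes in the 2 sets. For 445 members, 2514 pseudogenes carry the gene's symbol followed by P, a rule chosen after the data were seen. Of the counts of these genes and pseudogenes together, 4.63%, 4.64% and 4.24% lay on pseudogenes in Scramble footprints and 16.8%, 17.2% and 17.6% in sgControl footprints. The sgDAMP footprints were at 20.2%, Scramble mRNA at 0.446% to 0.485% and sgControl mRNA at 0.101% to 0.122%. In sgControl footprints the pseudogenes held more counts than the gene for 105 of the 445 members, in Scramble footprints for 2 and in mRNA for 0.

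Single genes show how far this went. ANXA2 had 8583 summed sgControl counts while its 3 named pseudogenes, chiefly ANXA2P2 on chromosome 9, had 139677, or 94.2% of the total. In Scramble the gene had 1634 and the pseudogenes 56 (3.31%). For EEF1A1, the elongation factor that delivers aminoacyl-tRNA, the pseudogene share was 95% in sgControl and 33.8% in Scramble, and for PKM 80.5% and 0.778%. ACTG1 (69.0% and 2.29%) and ACTB (67.3% and 4.16%), the cytoplasmic actins, and the chaperones HSPD1 (91.3% and 9.25%) and HSPA8 (78.3% and 1.13%) had the same order. KRT8, called higher in Scramble, had 89.6% of its sgControl counts on pseudogenes and 11.2% of its Scramble counts.

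**Figure D5:**
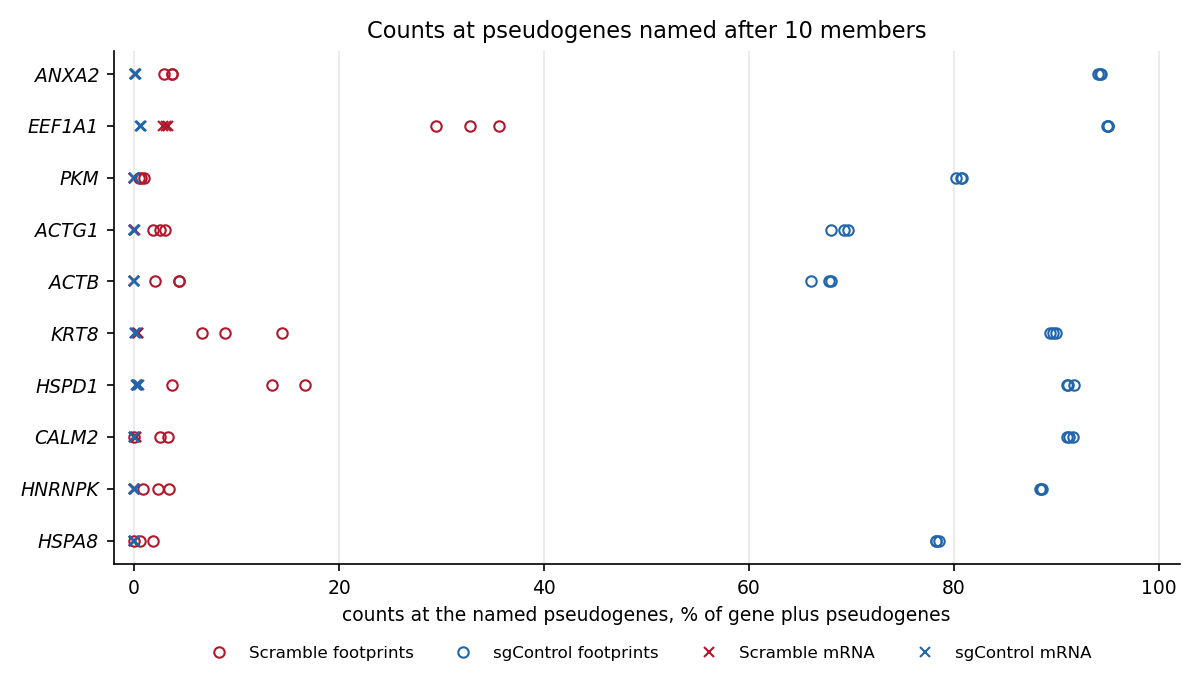
Counts on the named pseudogenes as a percentage of gene plus pseudogene counts, for the 10 members with the most pseudogene counts in sgControl footprints, a point per library. In sgControl footprints the shares of these members, summed over libraries, run from 67.3% to 95%, and in Scramble footprints from 0.778% to 33.8%.

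The 105 members whose sgControl counts lay mainly on pseudogenes gave 38 higher and 5 lower in Scramble, with a median of 0.88. Of all members, 33.6% were higher and 36.9% lower. The 105 were picked by sgControl gene counts that were low beside those of the pseudogenes. These same gene counts enter the log2 difference, so that part of an upward shift follows from the choice. The 445 with a named pseudogene gave 99 higher and 192 lower (median -0.44), and the 1160 without one 440 higher and 401 lower (median 0.37). When gene and pseudogene counts were added before the test, an alternative chosen after the data were seen, 564 members were higher and 597 lower. KRT8 then turned to -0.86 (adjusted p = 0.127) and PKM to -1.17 (adjusted p = 0.0425). The part of read placement in these values was not tested.

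Some markers of the cell line were counted in both sets and others were not. Of 11 epithelial and lung adenocarcinoma markers, KRT7, KRT8, KRT18 and CDH1 were members, and NKX2-1 and NAPSA had 0 footprint counts in all 6 libraries. EPCAM had 1, 1 and 0 counts in Scramble and 26, 24 and 28 in sgControl. KRT19 had 0 in each Scramble library and 16, 24 and 19 in sgControl. MUC1 went the other way, at 5, 11 and 7 in Scramble and 0 in each sgControl library. SFTPB had at most 1 count in a library. EGFR, the mutated receptor of this line, had 35, 27 and 8 counts in Scramble and 47501, 63989 and 56520 in sgControl. The list summed to 4170 to 6010 CPM of coding counts in Scramble and 16100 to 17800 in sgControl. EGFR alone held 47501 of the list's 87960 counts in the first sgControl library. Of 6 leukocyte markers, PTPRC, CD3E and CD68 had 0 footprint counts in every library. Nearly all leukocyte counts were CD14, at 13, 16 and 9 in Scramble and 0 in sgControl, a summed level of 61.8 to 103 CPM against 0 to 0.183. CD14 mRNA went the other way, at 9, 8 and 9 counts in Scramble and 59, 123 and 50 in sgControl. Fibroblast markers summed to 37.1 to 80.2 CPM in Scramble, from 7 to 9 counts, and 1.28 to 2.56 in sgControl, from 8 to 14 counts. The part of these markers in the results was not tested, and in bulk libraries fewer cells of a type and less RNA per cell cannot be told apart. Endothelial markers gave at most 4 counts and erythroid markers at most 2 in a library.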

How the data were processed

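Per the submitters' processing notes, the tools were HTSeq 0.11.2 for counting, HISAT2 2.1.0, Trimmomatic 0.30, SAMtools 1.10 and, in some role, edgeR, with GRCh38. The sources used here do not give the annotation release, the strand setting or the treatment of multiply placed reads. The authors deposited raw counts per gene and library, with 5 closing rows. Symbols came from a gene name table for 42045 of 61487 gene IDs. RNA classes and positions came from RefSeq (GRCh38.p14), matched by symbol for 40239 IDs, by synonym for 348 and by family name for 945, which left 19955 unclassed.

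Library size was the protein-coding count, scaled by TMM over the members, after filterByExpr (minimum count 10). Tests were edgeR 4.0.16 quasi-likelihood F tests in R 4.3.3 (DESeq2 1.42.0 and limma 3.58.1 in alternatives), all two-sided; SE is the log2 difference divided by the square root of F. The script was tested on simulated data. The spread of the footprint fit follows 1 common trend over genes, since 3 libraries against 1 sum leave little per gene. Protein lengths were not analysed here.

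Members and lists were chosen with earlier results of these data known. Named were DSP-AS1, DSP and YTHDF1; the 10 highest and 10 lowest called members without overlap; up to 3 called members per list with the smallest p; the most counted members and genes per RNA class; and genes at the edge of the minimum. Some genes that meet these rules are not reported here. Other genes in the text were named after their values were seen. Alternatives were other scalings, filters, tools, a replicate block, other minimum counts and leaving out each library.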

Additional observations from a re-analysis of the deposited data

Results flagged for a closer look

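The footprint difference between the 2 control conditions differed from their mRNA difference in the direct test of that interaction. Of 1583 members, 558 had relatively more footprints in Scramble and 656 relatively fewer. With the sgControl footprint libraries taken as 3 replicates the counts were 606 and 702, and with protein-coding totals as the scale 854 and 361. Groups of 3 libraries are too small for a check of single outlying libraries.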

How the results depend on the processing

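Scaling moved the counts of called members most. Against 539 higher and 593 lower, TMM over all genes fitted gave 822 and 337, the upper quartile 866 and 314, protein-coding totals 962 and 223, and all gene counts 36 and 383; with protein-coding totals the interaction gave 854 and 361. A minimum of 30 counts gave 206 and 159 of 498 members, fewer because fewer were tested. Leaving out a library gave 419 to 562 higher and 529 to 617 lower. Reversed were DSP (0.39, 0.58 and 1.06 with TMM over all genes, the upper quartile and protein-coding totals), BAX (0.08 with protein-coding totals) and, with pseudogenes summed, KRT8 (-0.86) and PKM (-1.17). Of 1746 alternatives for 97 named members, 1675 kept direction and side of the threshold, 48 lost the call, 17 gained it and 6 reversed; the cause was not tested. Of 475 alternatives for 23 list medians, taken relative to the members' median, 43 moved beyond their spread and 8 changed sign, in 5 lists: the proteasome (0.45) and the endoplasmic reticulum (0.46) with a minimum of 30 counts, the respiratory chain (-0.16) with pseudogenes summed, and aminoacyl-tRNA synthetases and mitochondrially encoded proteins (-0.34) under others.

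With all reads as the denominator, log2 share ratios were -5.32 for coding genes, 1.72 for mitochondrial rRNA, 1.12 for snoRNA, -0.31 for miRNA, -1.35 for lncRNA, -5.36 for snRNA, -7.38 for other pseudogenes and -2.21 for small or ribosomal RNA pseudogenes. Without the 10 most counted genes they were -0.45 for coding genes, 6.02 for snoRNA, 4.56 for miRNA, 3.53 for lncRNA, -0.47 for snRNA, -2.58 for other pseudogenes and 2.35 for small or ribosomal RNA pseudogenes.

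Same-numbered libraries did not deviate together (correlations -0.012, -0.016 and 0.011 in footprints, -0.032, -0.069 and -0.261 in mRNA). In mRNA no pairing by number was seen. For footprints the check cannot decide, since the sgControl libraries differ by sampling noise alone for nearly all genes. With the replicate block, footprints gave 685 higher and 677 lower (729 and 717 without it, 3 libraries a group), mRNA 635 and 601, and the interaction 598 and 702. Counts of Scramble libraries limit the precision throughout.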

Other observations

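Several of the members lowest in Scramble against sgControl also had fewer footprints in sgDAMP than in sgControl, which both comparisons share, so that some overlap follows from that alone. The ratio of summed sgDAMP to sgControl footprints, taken about its median over members, was lower by at least 4-fold for 15 members, and 7 of the 10 lowest members of Scramble against sgControl are among them. For CDK4 the summed counts were 129 in Scramble, 49474 in sgControl and 444 in sgDAMP. For NONO they were 65, 189791 and 18711, for CTNNB1 148, 243783 and 18458, and for ENO1 1958, 447454 and 21793. The other members of the 15 are PLAUR, SMAD2, WWTR1, HYOU1, IGF1R, PARK7, JAG1, ITGA6, YBX3, RDX and SDCBP. PLAUR is the exception that was not called between Scramble and sgControl (-0.19). Of all 1605 members, 36.9% were called lower in Scramble. KPNA2 and HSP90AB1, also among the 10 lowest, are outside that set: sgControl and sgDAMP counts were 51542 and 32175 for KPNA2 and 69749 and 49040 for HSP90AB1. The mRNA difference, Scramble minus sgControl, was -0.35 for CDK4, -0.71 for NONO, 1.25 for CTNNB1 and -2.53 for ENO1. These genes were chosen after their values were seen.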
